A study of Danio rerio with 2 samples.

Results

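Pancreatic amylase, encoded by amy2a (Refseq ID NM_213011), was followed in whole zebrafish larvae through every row listed under that ID, which gave 9 introns of the 55660 in the table and 1 of the 10223 genes with a gene value. The tested larvae were homozygous for the clbns841 allele (caliban, clbn), and the comparison larvae were genotyped as homozygous wildtype. Each genotype was represented by 1 library of poly(A) RNA from about 60 genotyped and pooled whole larvae aged 108 hours after fertilization, so no value below has a replicate error and no difference has a replicate check. Larvae of both genotypes were raised at 28.5 °C and kept in 0.003% PTU, a blocker of pigment formation, from 24 hours onwards. The series asks how intron retention and gene levels differ in larvae deficient in U12-type splicing.

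Amylase cuts starch into short sugars. In fish, as in mammals, it is made in bulk by the acinar cells of the exocrine pancreas, packed into zymogen granules with proteases and lipases, and released into the gut. Most introns are removed by the major spliceosome, and a rare class, the U12-type introns, by the minor spliceosome. Intron classes were not among the columns used, so none is given for amy2a. The headers of the authors' retention coefficient, used below, name U12 introns. Those columns hold a value for every amy2a intron and were not read as a class.

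The libraries held 25718058 reads for the mutant and 28309779 for wildtype. Introns took 7.06% of reads in the mutant and 6.97% in the wildtype library, and genes with a value 48.2% and 48.9%. The gene shares rest on reads recovered from the deposited gene values, which can be too low. The median log2 ratio of gene reads per library total, mutant over wildtype, was 0.05 over the 10175 genes with at least 20 reads in the 2 libraries together. As background knowledge, the gene mutated in clbn is rnpc3, whose product is part of the minor spliceosome. It had 109 reads in the mutant and 273 in the wildtype library, a ratio of 0.440 (0.349 to 0.551). All intervals given are exact 95% intervals, and counting error is all they cover, because each genotype had 1 library. Reads amplified by PCR may be copies of 1 molecule, and the intervals are then too narrow even for counting error. In whole larvae, fewer acinar cells and less amylase RNA per acinar cell cannot be told apart.

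The amy2a transcript was among the most reduced of all genes in the mutant library. It had 3123 gene reads in the mutant and 16041 in the wildtype library. The deposited gene value, whose header names no unit and which behaves as reads scaled by unique exonic length and by library size, was 76.9 in the mutant and 359 in wildtype. Scaled by library total, amy2a was 4.67-fold lower in the mutant library (4.49 to 4.85), a log2 ratio of -2.22. Of all 10175 genes with at least 20 reads, 1.11% were at least 2-fold lower, and the amy2a ratio was the 4th lowest. Among the 9553 genes with at least 100 reads it was the 2nd lowest.

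The rank of amy2a by level was lower in the mutant library. By gene value it stood at place 623 of 10223 in the mutant and 212 in the wildtype library, counted from the highest. Its neighbours in the mutant library were uqcrc2b, a subunit of the mitochondrial cytochrome bc1 complex, at 76.94 just above it, and the mitochondrial carrier gene ucp2 at 76.7 just below. In the wildtype library the lens crystallin gene crygm2d12 stood just above amy2a at 360.2 and the lactate dehydrogenase gene ldhba just below at 358. In the mutant library crygm2d12 had a value of 197 and ldhba one of 349, against 76.9 for amy2a. The cytochrome P450 gene cyp3a65, 3 places below amy2a in wildtype at 345, had 92.7 in the mutant library, a ratio of 0.268 (0.2600 to 0.277).

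The listed introns of amy2a lie on chromosome 2 of Zv9, plus strand, between 15433543 and 15447327. Intron 1 is the longest, with 8240 bp at 15433543 to 15441782. Introns 2, 4, 6 and 7 are short, with 79, 92, 84 and 99 bp. Introns 3, 5, 8 and 9 have 251, 1294, 1955 and 510 bp. The 8 stretches between them, which are the internal exons, measure 147, 198, 231, 134, 123, 100, 122 and 126 bp from exon 2 to exon 9. They sum to 1181 bp of the 1579 bp of unique exonic length recovered for the gene.

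Intronic reads of amy2a were lower in the mutant library in all 9 introns, by at least 2-fold in each. Of all introns in the table with a gene value, 44.7% had fewer scaled reads in the mutant library and 14.7% at least 2-fold fewer. Among introns that had 20 or more reads in total the second share was 7.61%, and all 5 such introns of amy2a were at least 2-fold lower. Summed over the gene, introns held 85 reads in the mutant and 426 in the wildtype library. That is a ratio of 0.220 (0.172 to 0.278), close to the gene ratio of 0.214 (0.206 to 0.223). Relative to gene reads, the mutant library held 2.72 and the wildtype library 2.66 intronic reads per 100 gene reads. The retention ratio, intronic over gene reads in the mutant over the same in wildtype, was 1.02 (0.7997 to 1.301, with the counting error of both kinds of reads). Over 8342 genes with at least 20 intronic reads, the median retention ratio was 1.02, with quartiles of 0.843 and 1.24.

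The largest share of intronic reads of the gene came from 1 short intron towards the 3′ end. Intron 7 (99 bp, 15444516 to 15444614) had 36 reads in the mutant and 236 in the wildtype library, which was 42.4% and 55.4% of all amy2a intronic reads. Its ratio by library total was 0.168 (0.115 to 0.239). The authors' retention coefficient, intron level over gene level per unique length, was 0.184 in the mutant and 0.235 in wildtype. Both coefficients were high among all introns, at percentiles 86.6 and 89.6, a ranking that is not matched for intron length. Without intron 7, the other 8 introns held 49 reads in the mutant and 190 in the wildtype library, a ratio of 0.284 (0.203 to 0.390) and a retention ratio of 1.32 (0.945 to 1.83).

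The neighbouring intron 6 (84 bp, 15444332 to 15444415) differed least between the libraries. It had 15 reads in the mutant and 34 in the wildtype library, a ratio of 0.486 (0.246 to 0.916). It was the 1 intron whose interval did not hold the gene ratio. Relative to gene reads it was 2.27-fold higher in the mutant library (1.15 to 4.28), with coefficients of 0.0903 in the mutant and 0.0398 in wildtype. By Fisher's exact test (two-sided), its unadjusted p was 0.011 and its adjusted p was 0.11 (Benjamini-Hochberg over 20223 introns), so it was not called.

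The long introns were nearly empty in both libraries. Intron 1 had 17 reads in the mutant and 60 in the wildtype library over 4203 bp of unique sequence, with coefficients of 0.0020 and 0.0014. Its ratio was 0.312 (0.171 to 0.542). Introns 5 and 8 had 1 and 2 reads in the mutant library, against 10 and 13 in wildtype. All of their coefficients were under 0.001, at percentiles of 0.212 to 0.844 among all listed introns, each of which has at least 1 read per library. Over the 5 introns longer than 150 bp, the mutant library held 3.47 reads and the wildtype library 15.6 reads per kb of unique sequence. Over the 4 shorter introns the figures were 167 and 873 reads per kb. The retention ratio was 1.14 (0.715 to 1.76) for the long introns and 0.981 (0.727 to 1.303) for the short ones. The value of the short ones rested on intron 7, and without it the other 3 had a retention ratio of 1.62 (0.965 to 2.62), from 23 reads in the mutant and 73 in the wildtype library. All of these intervals held 1.

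The remaining introns carried few reads. Intron 2 had 5 reads in the mutant and 24 in the wildtype library, intron 3 had 2 and 20, intron 4 had 3 and 15, and intron 9 had 4 and 14. Each held fewer reads in the mutant library. Only intron 9 had an interval of the ratio by library total that reached 1 (0.0754 to 1.001).

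**Figure D1:**
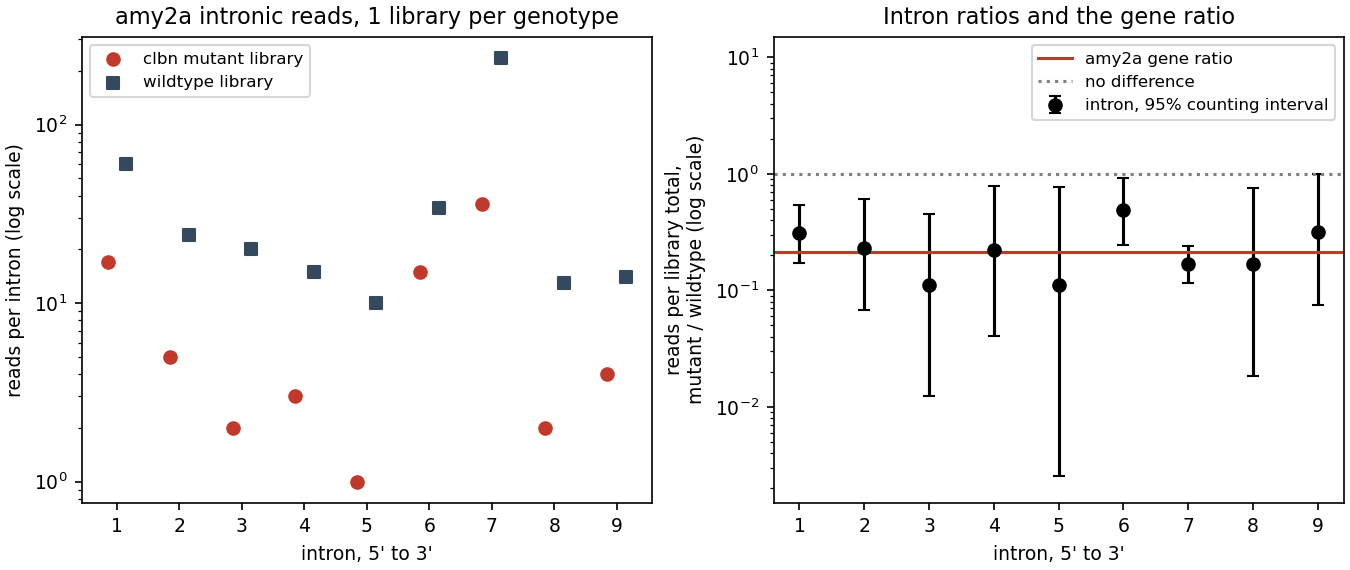
Left, reads in each of the 9 amy2a introns (log axis) in the clbn mutant library (circles) and the wildtype library (squares). Right, ratio of reads per library total, mutant over wildtype (log axis), with 95% counting intervals, the gene ratio of 0.214 as a solid line and no difference as a dotted line; intervals of all introns but intron 6 hold the gene ratio.

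No amy2a intron was called higher or lower in retention. Of the 9 introns, 5 had at least 20 reads over both libraries and were tested, and 4 were under that minimum. At an unadjusted p under 0.05 there was 1, intron 6. Adjusted p-values of the other tested introns by Fisher's exact test were 0.50 for intron 1, 0.98 for intron 2, 0.84 for intron 3 and 0.52 for intron 7. Over all 20223 tested introns 2.92% were called higher and 1.46% lower, where a call needs a 2-fold difference and an adjusted p under 0.05. At these shares no call would be usual for 5 introns. With 1 library a genotype, a call separates the libraries and says nothing of the spread between larvae. Retention ratios of the 9 introns ran from 0.514 to 2.27, with 5 above 1 and 4 below. The middle ratio of the 9 was 1.03 (intron 4). With a pseudocount of 0.5, which weighs most where mutant reads are few, their median was 0.21 on the log2 scale. It was also 0.21 for the 5 tested introns alone. The median of all tested introns was 0.03, with quartiles of -0.38 and 0.43.

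Most introns of amy2a were low in level compared with introns at large. The median coefficient over the 9 introns was 0.0040 in the mutant and 0.0078 in the wildtype library, against 0.0286 and 0.0276 over all introns. Introns 2, 6 and 7 were the 3 above the median of all introns, in either library. Every listed intron has at least 1 read per library, so the lowest coefficient that can be seen is higher in weakly expressed genes. The comparison with all introns is not corrected for that, nor for intron length.

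A second amylase gene, amy2al2 (NM_001003729) on chromosome 17, allowed a comparison within the family. The third gene of the family, amy2al1, was not analysed here. Both measured genes have 9 listed introns, and all 8 internal exons are equal in length between them (100 to 231 bp), while no intron is. Introns sum to 12604 bp in amy2a and 2707 bp in amy2al2. Close copies can share reads, so values of single amylase genes are less certain, and how such reads were assigned is not given in the sources used here.

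Transcripts of amy2al2 were lower in the mutant library, but by less. It had 3294 gene reads in the mutant and 10831 in the wildtype library, a ratio of 0.335 (0.322 to 0.348). The ratio of amy2a was 0.640 times that of amy2al2 (0.606 to 0.676). In reads of both amylase genes, amy2a made up 48.7% (47.4 to 49.9%) in the mutant and 59.7% (59.105 to 60.3%) in the wildtype library. The order by gene value was thus different, with amy2a at 76.9 and amy2al2 at 86.5 in the mutant, and 359 and 258 in wildtype. Neither the share nor the odds ratio depends on how the libraries are scaled, but the share rests on the reads recovered for each gene.

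Introns of amy2al2 held 88 reads in the mutant and 232 in the wildtype library, a ratio of 0.418, and a retention ratio of 1.25 (0.961 to 1.61). Summed intronic reads of amy2a had a ratio 0.526 times that of amy2al2 (0.370 to 0.749). Intron 7, at the matching position of both genes, had a coefficient of 0.0593 in the mutant and 0.0766 in the wildtype library in amy2al2. That was the highest of amy2al2 in wildtype, while in the mutant library its intron 4 was higher, at 0.0823. None of the amy2al2 introns with at least 20 reads was called by Fisher's exact test, and none of them had an unadjusted p under 0.05. Over all tested introns 2.92% were called higher and 1.46% lower, so no call would be usual for so few introns. In amy2al2, introns 2 and 9 were under the minimum of 20 reads. Intron 2 had 12 reads in the mutant and 6 in the wildtype library, a retention ratio of 6.58 with an unadjusted p of 0.00011 by Fisher's exact test, and was called higher with a minimum of 5 reads or none. Intron 9 had 5 and 2 reads, a retention ratio of 8.22 with an unadjusted p of 0.0094 by the same exact test, and was not called under any minimum tried. In both of these, and in no amy2a intron, scaled reads were higher in the mutant library.

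**Figure D2:**
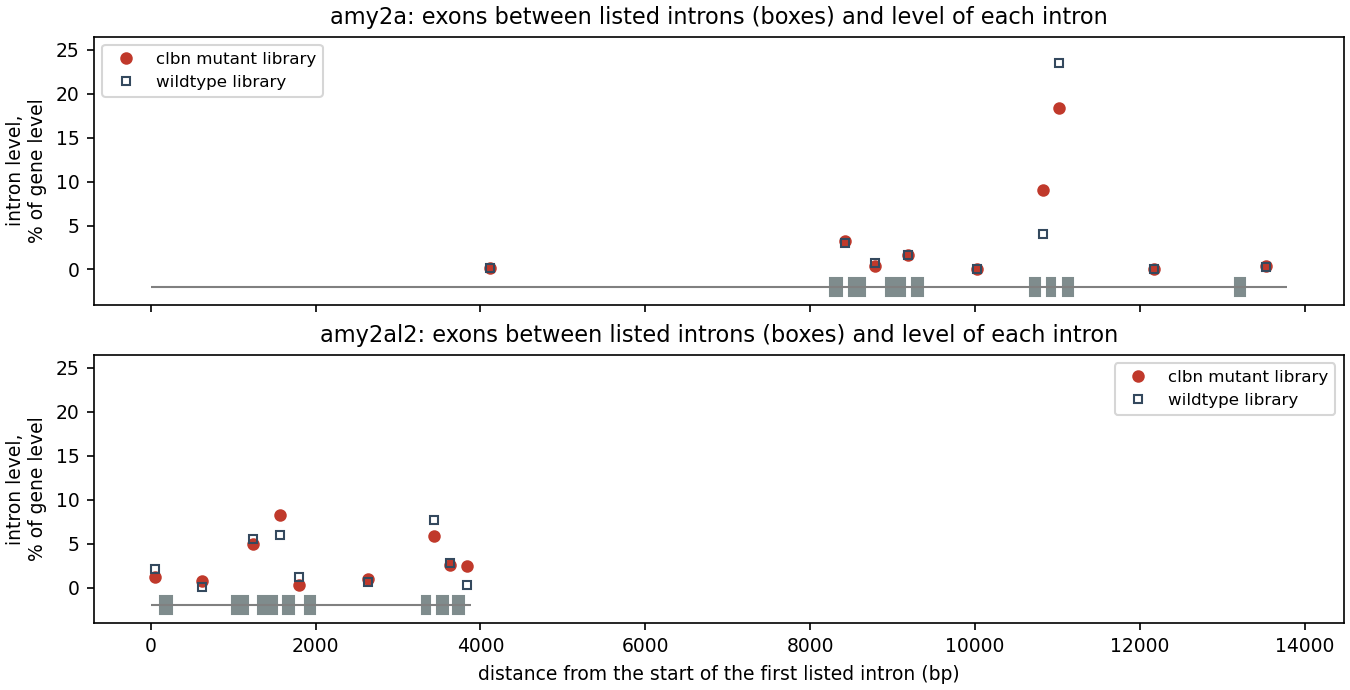
Internal exons (boxes) between the listed introns of amy2a (top) and amy2al2 (bottom), to scale in bp from the start of the first listed intron, with the level of each intron as a percentage of gene level in the clbn mutant library (filled circles) and the wildtype library (open squares). Intron 7 of amy2a stands out at 18.4% in the mutant and 23.5% in wildtype; first and last exons are not drawn.

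Other digestive enzymes of the acinar cell were lower as well. Of 34 symbols on the list, 20 had a measured gene, and in the mutant library 19 of the 20 were lower by 2-fold or more, beside 1.11% of all genes tested. None was 2-fold higher, beside 0.855% of all genes. The list was drawn up with earlier results of these data known, so its count is no independent evidence. On the log2 scale the enzymes had a median of -1.62, with or without amy2a. Among the 20, amy2a had the lowest ratio. The other 19 ran from 0.238 for the elastase gene cela1.3 to 0.541 for cela1.4, the 1 enzyme less than 2-fold lower.

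Against single enzymes, the lower ratio of amy2a was outside counting error for 17 of 19. Of those 17 the closest were cel.1 and cel.2, which code for lipases activated by bile salts. The lipase gene cel.1 had 2575 reads in the mutant and 11268 in the wildtype library, and the amy2a ratio was 0.852 times its ratio (0.804 to 0.903). For cel.2, with 604 and 2593 reads, it was 0.836 times (0.758 to 0.922). Among the proteases, amy2a was at 0.752 times (0.709 to 0.797) the ratio of the carboxypeptidase gene cpb1, at 0.722 times (0.687 to 0.758) that of prss59.1, a serine protease gene, at 0.657 times (0.630 to 0.685) the ratio of trypsin (prss1, 18101 reads in the mutant and 61069 in wildtype) and at 0.576 times (0.552 to 0.600) that of chymotrypsin (ctrb.1, 17531 and 51842 reads). The elastase gene cela1.3 was nearest of all, at 0.902 times, but with 19 reads in the mutant and 88 in the wildtype library, the interval held 1, at 0.544 to 1.57. Of all digestive enzyme reads, amy2a made up 2.47% (2.39 to 2.56%) in the mutant and 3.801% (3.74 to 3.86%) in the wildtype library. These shares rest on recovered gene reads, which can be too low for single enzymes, and the intervals do not cover that error.

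**Figure D3:**
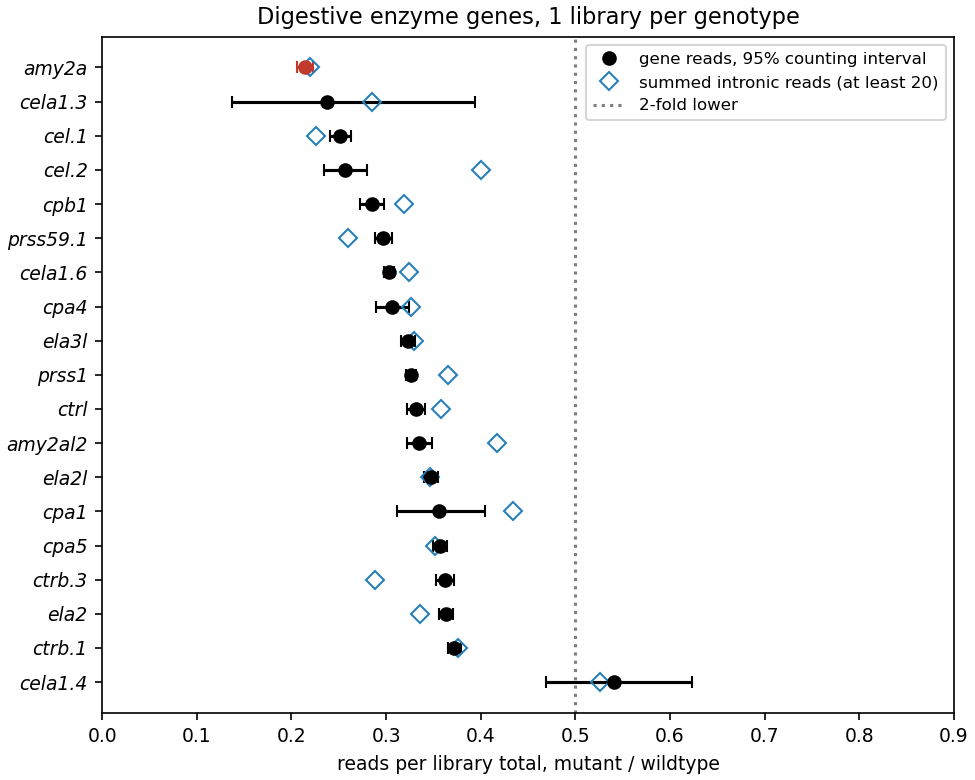
Ratio of gene reads per library total, mutant over wildtype, for 19 of the 20 measured digestive enzyme genes (circles, with 95% counting intervals), and of their summed intronic reads where there were at least 20 (diamonds). The gene ratio of amy2a, 0.214, lies furthest to the left, and cela1.4 at 0.541 is the 1 gene right of the dotted line at 2-fold lower.

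Intronic reads were lower together with gene reads across the enzymes, as in amy2a. Of the 19 enzymes with at least 20 intronic reads, amy2a among them, 18 had an intronic sum lower by 2-fold or more, beside 3.06% of 8342 genes. The ratios of these sums ran from 0.220 for amy2a, the lowest, to 0.526 for cela1.4. The ratio for cel.1 was close, at 0.226 (0.174 to 0.290), and its interval overlapped that of amy2a (0.172 to 0.278). Retention ratios of the 19 had a median of 1.02 and ran from 0.795 to 1.56, with 12 above 1 and 7 below. In 16 of them the interval held 1. The exceptions were prss1 at 1.12 (1.06 to 1.19) and the carboxypeptidase gene cpb1 at 1.12 (1.03 to 1.22) above, and the chymotrypsinogen gene ctrb.3 at 0.795 (0.733 to 0.862) below. Intervals are narrower where intronic reads are many, and the matching share over all genes is not given here. Whether the enzymes differ in this from genes at large was thus not tested. Of all 82 genes with at least 20 intronic reads and a gene ratio of 0.5 or lower, 50 (61%) had an intronic sum at least 2-fold lower. Of the 64 among them that are not on the enzyme list, 32 did, and the median retention ratio of the 64 was 1.25.

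Enzyme genes differed widely in how many intronic reads they carried, and amy2a was near the low end. With 2.72 intronic reads per 100 gene reads in the mutant and 2.66 in the wildtype library, it had 2 enzymes below it in each. The amylase gene amy2al2 (2.67 and 2.14) and cel.2 (2.65 and 1.70) were those 2. At the other end were cpb1, with 39.1 per 100 in the mutant and 34.9 in wildtype, and cela1.3 with 36.8 and 30.7. These figures are not scaled by intron length, and they are too high where the recovered gene reads are too low. The recovered lengths were 664 bp for cpb1 and 175 bp for cela1.3, so the order of the enzymes is uncertain.

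**Figure D4:**
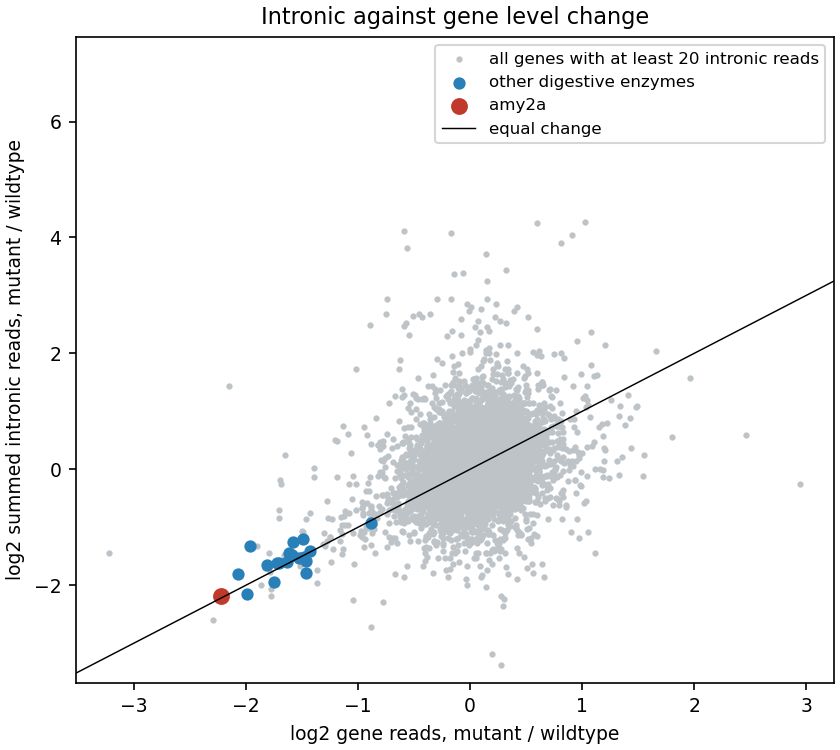
Log2 ratio of summed intronic reads against log2 ratio of gene reads, mutant over wildtype by library total, for genes with at least 20 intronic reads (grey), digestive enzymes (blue) and amy2a (red), with the line of equal change. The point for amy2a lies next to the line, at -2.22 for gene reads.

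The measured pancreas transcription factor and secretory machinery genes had ratios spread around 1. The transcription factor gene ptf1a, which drives acinar enzyme genes in mammals and is also used by some neurons, had 85 reads in the mutant and 81 in the wildtype library, a ratio of 1.16 (0.842 to 1.59). Of 15 symbols for pancreas transcription factors, 9 had a measured gene, and their ratios ran from 0.739 for hnf4a to 1.44 for prox1a. Symbols without a measured gene included bhlha15 and rbpjl. The log2 median of the measured genes was 0.02, beside 0.05 over all genes. None of these genes was 2-fold lower or higher, beside 1.11% and 0.855% of all genes, which says little for so short a list. For the secretory machinery, 3 of 9 symbols had a value. Among them xbp1, a regulator of secretory capacity in the endoplasmic reticulum, had a ratio of 1.203 (1.15 to 1.26), and the granule GTPase genes rab3da and rab3db had 1.06 and 1.04. Genes of both lists are used by many tissues of a whole larva, so their ratios say little about acinar cells alone.

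Among measured markers of neighbouring cell types, only the liver gene ahsg1 came near the size of the amylase difference. Of 11 measured endocrine pancreas genes none was 2-fold lower or higher, beside 1.11% and 0.855% of all genes, so that none would be usual for a list of this length. Their log2 median was 0.0039, beside 0.05 over all genes, and median ratio scaling, which shifts every log2 ratio by -0.05, puts it below 0. The ratios ran from 0.832 for arxa to 1.72 for the glucagon gene gcga. The insulin gene ins had 397 reads in the mutant and 477 in the wildtype library (ratio 0.916, 0.7999 to 1.05). Of 10 liver genes, 1 was at least 2-fold lower (ahsg1, 0.289) and the list median was -0.11. Of 7 intestine genes none was, with a median of -0.37, and 6 of the 7 were below 1, beside 41% of all genes tested. The 1 duct gene with a value, sox9b, which other tissues also use, had a ratio of 1.01. The part of these cell types in the amylase difference was not tested.

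For genes further along the route of dietary sugar, the differences were smaller than for amy2a. Of 6 measured genes of gut sugar digestion, uptake and first metabolism all were below 1, beside 41% of all genes, and 1 was 2-fold lower or more, beside 1.11%. Their log2 median was -0.34, beside 0.05 over all genes. The intestinal glucose transporter gene slc5a1 had a ratio of 0.910 (0.836 to 0.990). Genes of glycogen turnover had a median of -0.11 over 9 genes, from 0.603 for the liver glycogen synthase gene gys2 to 0.993 for ugp2a. All 9 were below 1, beside 41% of all genes. None was at least 2-fold lower, beside 1.11% of all genes, so none would be usual for a list of this length.

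**Figure D5:**
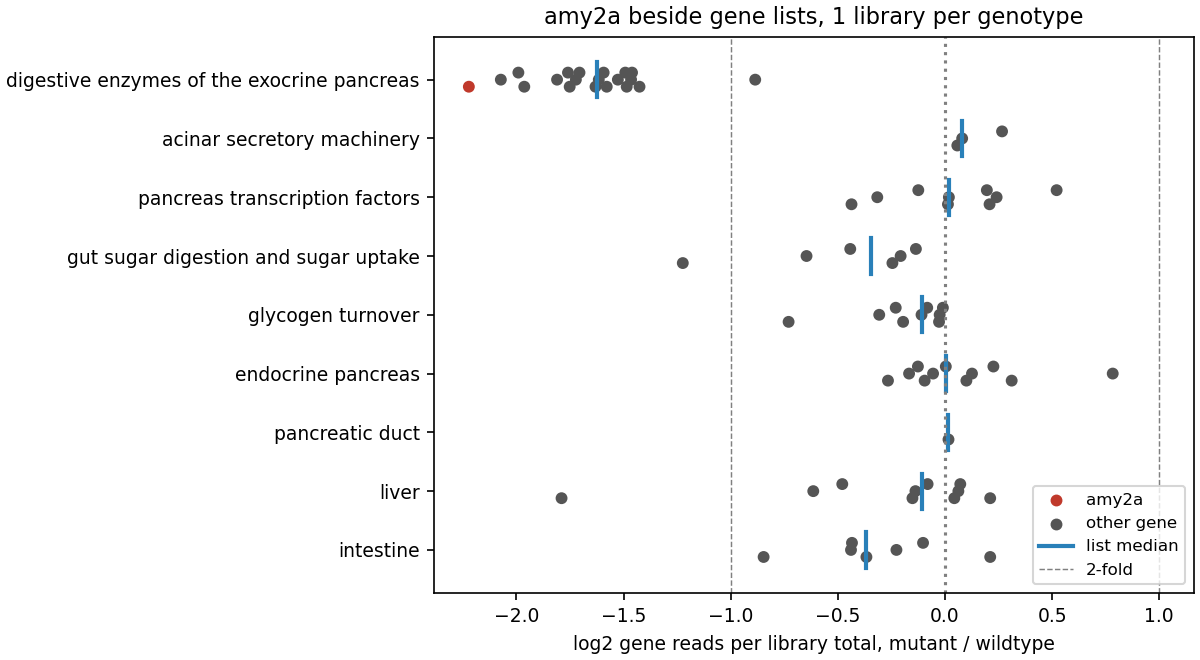
Log2 ratio of gene reads per library total, mutant over wildtype, for each measured gene of 9 lists (points), with amy2a in red, list medians as blue bars and 2-fold lines dashed. Digestive enzymes have a median of -1.62, and the other lists have medians between -0.37 and 0.08.

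The 5 genes with at least 100 reads whose log2 ratio over the 2 libraries was nearest to that of amy2a were selenoe, grifin, cela1.3, cel.1 and cel.2, at distances of 0.07 to 0.26. The selenoprotein gene selenoe had 326 reads in the mutant and 1591 in the wildtype library, a ratio of 0.226, but its introns held 37 reads in the mutant and 15 in wildtype. The lens galectin gene grifin had 46 and 249 gene reads (0.203), and 7 and 47 intronic reads. With the gene level about as much lower as in amy2a, intronic reads were thus lower in grifin, as in amy2a, and higher in selenoe.

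No neighbour of amy2a on the chromosome with a gene value was 2-fold lower, beside 1.11% of all genes tested, so none would be usual for so few genes. The nearest gene with listed introns on the upstream side was col11a1b, a cartilage collagen gene 50.4 kb away, with 3679 reads in the mutant and 3377 in the wildtype library (1.199, 1.14 to 1.26). Further out on that side, tecrl2b had a ratio of 1.198 (0.850 to 1.69) and arhgap29b one of 0.804 (0.723 to 0.893). Downstream, vav3b, 391 kb away, had no gene value, and its introns held 20 reads in the mutant and 23 in wildtype. Beyond it, selenoj had a ratio of 0.917 (0.755 to 1.11) and zgc:110269 one of 1.43 (1.16 to 1.78). The introns of col11a1b held 995 reads in the mutant and 786 in the wildtype library, a ratio of 1.39 (1.27 to 1.53).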

How the data were processed

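The source was an intron table built on Refseq gene models, with 1 library per genotype, grouped by genotype label. Intron reads are whole counts as the authors deposited them, not normalized, and no listed intron has under 1 read in either library. Per the file headers, they also gave intron levels in RPuKM, an RPKM over unique length, and log2 values and fold change (ratio) columns that were not used. Coordinates are on Zv9, per the submitters' processing notes. No aligner, counter, strand setting or rule for reads of several positions is given in the sources used here. Library sizes were recovered from counts, lengths and RPuKM. Gene values, deposited without a unit, gave whole reads and a whole length for 10223 of 10223 genes (smallest solution, within 1e-06 reads), which can be too low by a common factor and so widen intervals.

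Positions count from 1. Gene symbols were looked up in a GRCz12tu gene table, used for names only, which matched 9797 of 10223 IDs (95.8%). Ratios of reads per library total have exact Clopper-Pearson intervals, and retention and gene-to-gene ratios exact conditional odds ratio intervals (scipy 1.17.1). Fisher's exact test covered introns of genes with a value, given 20 or more reads. It was tried on simulated counts with counting error alone, so that trial does not cover PCR copies or spread between larvae. Normalization by TMM used edgeR 4.0.16. Members, lists and tests were chosen with earlier results of these data known. Named were the gene, its introns, enzymes, other list members with the lowest or highest ratio or the most wildtype reads, and, chosen for their role after values were seen, ptf1a, ins and rab3da. Further named were the 5 genes nearest in ratio, genes nearest in level and 3 neighbours per side. Alternatives covered scaling, pseudocount, read minimums and single introns. Values of some single list members are counted but not reported here.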

Additional observations from a re-analysis of the deposited data

How the results depend on the processing

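The gene ratio of amy2a lay between 0.206 and 0.218 under scaling by summed gene reads, TMM, median ratio and gene reads without digestive enzymes, and the ratio of its intronic reads between 0.212 and 0.223 under the scalings tried for it. The count of 19 enzymes at least 2-fold lower was also 19 under the first 3 of these scalings and with no minimum of gene reads, and 18 with a minimum of 100 reads. With a pseudocount of 0.5 on the sums, the retention ratio was 1.03. It was 1.07 with 5 and 0.927 with introns of at least 50 reads. As the median over introns, with 0.5 added in each, it was 1.15. With the tested introns alone it was 1.04 (an alternative chosen after seeing the data). With 1 intron left out it ranged from 0.922 (without intron 6) to 1.33 (without intron 7), and the second lay above the upper bound of 1.301 for all introns. Intronic reads relative to the library total gave 0.221 in place of the retention ratio, since gene reads are then not divided out, and 4 amy2a introns (1, 2, 3 and 7) were then called lower, against 0 called relative to gene reads. With minimums of 5 or 50 reads or none, and with pseudocounts of 5 or 0, no amy2a intron was called by Fisher's exact test. The pseudocount enters the fold and not the test, so changing it could not have added a call. The adjusted p of intron 6 ran from 0.11 to 0.23 over the settings that tested it. The amy2al2 intron 2 was called higher with a minimum of 5 reads or none.

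No paired analysis was possible because each genotype had 1 library. Introns with under 20 reads limit what can be seen: the odds ratio interval of intron 5, with 11 reads over both libraries, ran from 0.0118 to 3.61.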
